A study of Xenopus tropicalis with 24 samples.

Results

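The interleukin-1 (IL-1), interleukin-18 (IL-18) and tumour necrosis factor (TNF) receptor genes described here are 10 genes of the frog *Xenopus tropicalis*, taken by symbol from a table of 26531 genes. They are the ligand *il1b*, the IL-1 receptor genes *il1r1*, *il1r2* and *il1rap*, the IL-18 receptor genes *il18r1.1* and *il18rap*, and the TNF receptor genes *tnfrsf6b*, *tnfrsf12a*, *ltbr* and *tnfrsf4*. All 10 were found, and all 10 passed the low-count filter in each of the 30 comparisons. RNA was sequenced from tails of tadpoles that had been cut and were collected at 0, 6 or 24 hours post amputation (hpa). The 4 animal groups were TRDKO tadpoles at stage 61 (TRDKO61), wild-type tadpoles at stage 61 (WT61), TRDKO tadpoles at stage 56 (TRDKO56) and wild-type tadpoles at stage 56 (WT56), stage 61 being the metamorphic climax. TRDKO animals lack functional genes for both thyroid hormone receptors, TRα and TRβ, and came from parents in which both TRα alleles and a single TRβ allele were knocked out. Every animal was amputated, the 0 hpa groups included, so no uncut tail stands in the series. The tissue was a short stretch of stump with all of the tail regenerate, of which there was none yet at 0 hpa. Earlier work by the same laboratory had described WT61 tails as nonregenerative and the tails of the other 3 groups as regenerative. Each of the 12 conditions had 2 libraries, numbered as replicates. The authors describe them as biological replicates made for each RNA sample at library construction. Whether the 2 libraries came from separate RNA samples, and how tadpoles were divided between them, is not given in the sources used here. The p-values therefore measure the spread between these libraries.

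In mammals, IL-1β is a cytokine released by activated leukocytes and epithelium, and it signals through a pair of chains, IL1R1 and IL1RAP, to the adaptor MyD88 and the transcription factor NF-kB. IL1R2 binds the same ligand without signalling and so acts as a decoy, while IL-18 uses a related pair, IL18R1 and IL18RAP. The TNF receptors are membrane or soluble proteins that bind ligands of the TNF superfamily: TNFRSF6B is a soluble decoy for several of them in humans, TNFRSF12A (Fn14) is the receptor for TWEAK and is induced by tissue injury, LTBR binds lymphotoxins and LIGHT, and TNFRSF4 (OX40) is a costimulatory receptor of activated T cells. These roles are known from mammals and are given as background.

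Library totals ran between 3956148 and 20731438 counts, with a median of 12576320. The spread between the 2 libraries of a condition, as a biological coefficient of variation, was 17.9 to 21.5% at 6 hpa and 10.8 to 18.5% at the other times. Transcripts of the receptor genes were counted in all groups, *thra* at 7.04 to 10.5 CPM (counts scaled to the library total) in TRDKO61, 10.3 to 13.9 in WT61, 5.91 to 7.38 in TRDKO56 and 4.07 to 6.43 in WT56, and *thrb* at 60.7 to 112, 120.4 to 217, 13.8 to 28.8 and 4.76 to 12.4 CPM in the same order, so the counts do not check the knockout. Markers of muscle, epidermis, nerve, erythrocytes and leukocytes were all present. The summed level of 20 leukocyte markers was 811 to 2649 CPM in TRDKO61, 1085 to 2198 in WT61, 769 to 1660 in TRDKO56 and 614 to 1900 in WT56. In such whole tissue, fewer cells of a type and less RNA per cell cannot be told apart.

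Per gene length, the most abundant members were *tnfrsf12a*, with a median of 66.7 FPKM (CPM divided by gene length in kb) over the 24 libraries, *ltbr* with 30.2 and *il1r1* with 23.9 FPKM. The median was 17.8 FPKM for *il1b*, 16.1 for *tnfrsf6b* and 11.2 for *il1rap*. At the low end stood *il18rap* with 3.41, *il1r2* with 3.38, *tnfrsf4* with 1.00 and *il18r1.1* with 0.774 FPKM. The range over conditions was wider for the genes at the low end and for *il1b* than for the others. The highest condition mean in CPM was 61.3 times the lowest for *il1r2*, 34.9 times for *il1b*, 21.1 times for *il18rap*, 15.7 times for *tnfrsf4* and 11.1 times for *il18r1.1*, against 3.36 to 5.60 times for the other 5 genes. Ranked over the 12 conditions, TRDKO61 at 6 hpa was the highest for 7 members (*il1b*, *il1r1*, *il1r2*, *il1rap*, *il18r1.1*, *il18rap* and *ltbr*), WT56 at 6 hpa for *tnfrsf6b* and *tnfrsf12a*, and TRDKO56 at 24 hpa for *tnfrsf4*. Between 7 and 10 of the 11 neighbouring pairs of conditions in each order overlapped in their libraries. The top condition did not overlap the second for *il1r2*, *il1rap*, *il18r1.1*, *il18rap* and *tnfrsf4*, and did for the other 5.

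**Figure D1:**
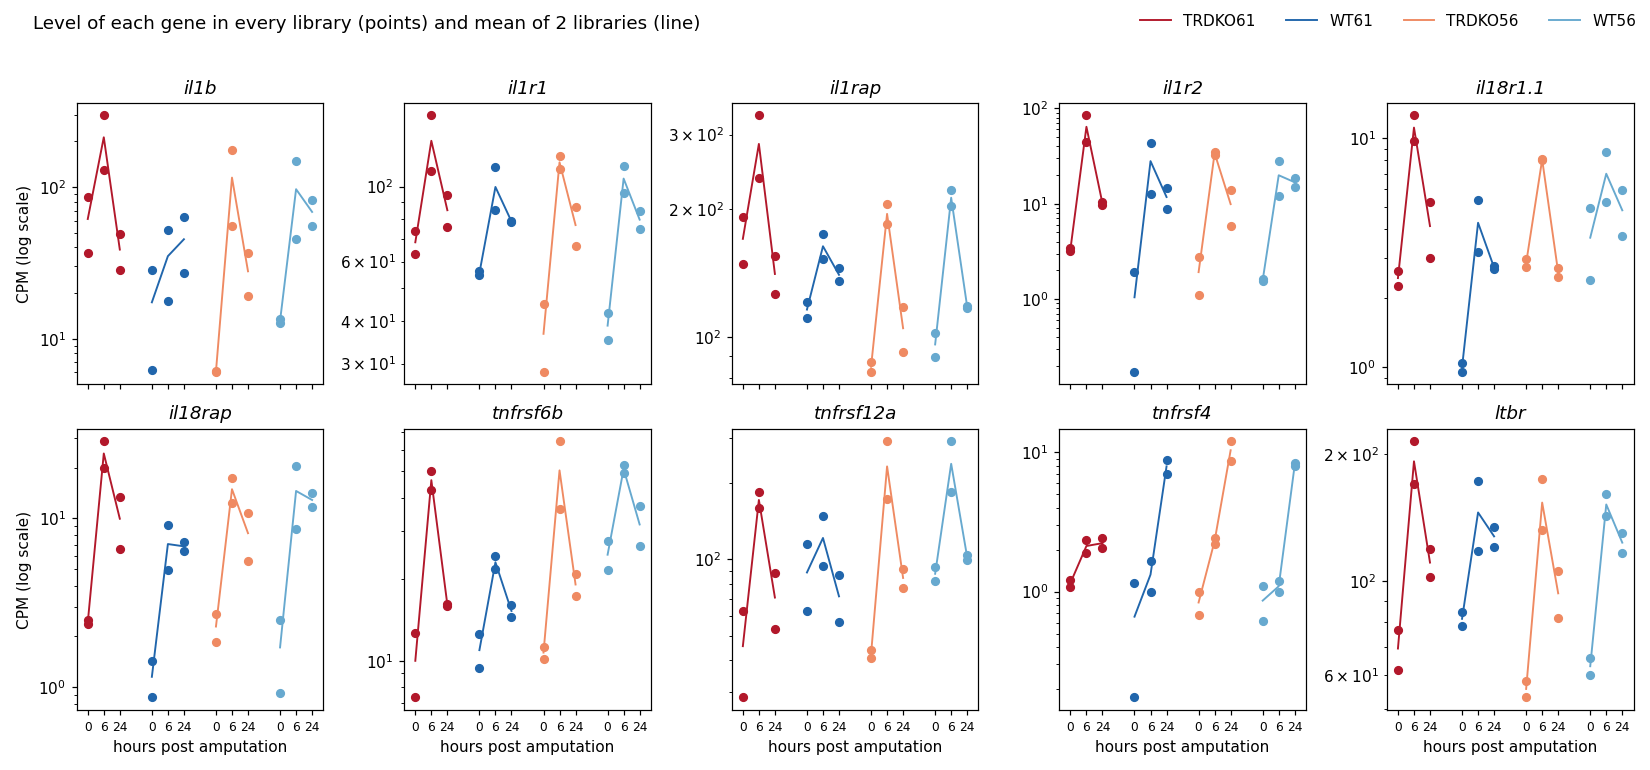
Level of each of the 10 genes in every library (CPM, log axis) at 0, 6 and 24 hpa, by animal group; points are libraries and lines join the means of 2 libraries. The 6 hpa libraries of *il1r2* lie between 11.9 and 84.1 CPM and its 0 hpa libraries between 0.174 and 3.44 CPM, whereas *tnfrsf4* at 24 hpa lies between 7.03 and 11.98 CPM in every group but TRDKO61, where its 2 libraries are at 2.41 and 2.05 CPM.

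On the reference UCB_Xtro_10.0, 4 of the receptor genes lie together on chromosome 2, within 167.368 kb: *il1r1* at 110610778–110635928 and *il1r2* at 110647448–110661831 on the minus strand, then *il18r1.1* at 110715675–110738083 and *il18rap* at 110764365–110778145 on the plus strand. The other members are dispersed, *il1b* on chromosome 3 (125917357–125923107), *il1rap* on chromosome 5 (104448266–104545870), *tnfrsf4* and *ltbr* far apart on chromosome 7 (93692305–93706998 and 10136565–10155157), *tnfrsf12a* on chromosome 9 (5431093–5441032) and *tnfrsf6b* on chromosome 10 (1048339–1054869). The span of *tnfrsf6b* lies inside that of *sox18* on the opposite strand, with 0 exon bases in common. Of the 3 other annotated loci inside the chromosome 2 stretch, LOC100490253 and LOC116408867 had at most 20 and 3 counts in any library. The remaining locus, LOC100491382, reached 166 counts, and it was higher at 6 than at 0 hpa in TRDKO61 (log2 fold change, FC, 1.44, edgeR FDR = 0.0157) and in WT56 (1.18, FDR = 0.0492).

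The ligand gene *il1b* was among the most variable members between the libraries of a condition. At 0, 6 and 24 hpa it had 86.3 and 36.8, then 296 and 129, then 48.8 and 28.6 CPM in TRDKO61. In WT61 the values were 28.5 and 6.25, then 17.8 and 52.2, then 27.0 and 63.5 CPM. The ranges of the WT61 libraries overlapped between all 3 times. In TRDKO56, *il1b* had 6.08 and 6.11 CPM at 0 hpa, 55.7 and 175 at 6 hpa and 36.6 and 19.1 at 24 hpa. In WT56 it had 13.6 and 12.7 CPM at 0 hpa, 45.2 and 148 at 6 hpa and 55.0 and 82.1 at 24 hpa. In TRDKO61, TRDKO56 and WT56 both 6 hpa libraries thus lay above both 0 hpa libraries. Here and below, a gene is called changed, or a differentially expressed gene (DEG), at an FDR under 0.05 in edgeR's quasi-likelihood test with an absolute log2 FC over 1, and ± is the standard error of the log2 FC. *il1b* rose between 0 and 6 hpa in TRDKO56 (log2 FC 4.23 ± 0.74, FDR = 0.00994) and in WT56 (2.88 ± 0.85, FDR = 0.0469). The values in TRDKO61 (1.81 ± 0.63, FDR = 0.0969) and in WT61 (1.04 ± 0.77, FDR = 0.431) did not pass. The WT56 call was lost without any 1 of its 4 libraries (1.77 to 3.50), and that of TRDKO56 without either 0 hpa library, with the log2 FC between 3.18 and 4.84. Without the low-count filter neither passed (FDR = 0.0680 in TRDKO56 and 0.232 in WT56), and with RLE size factors the WT56 value had an FDR of 0.0511. With a term for the replicate number the WT56 value had an FDR of 0.129. From 6 to 24 hpa *il1b* fell in TRDKO56 (−2.07 ± 0.63, FDR = 0.0499), a call that was lost without the second 6 hpa library (−1.0 at the smallest) or without either 24 hpa library. The call was also lost with upper-quartile factors, without the filter, with a term for the replicate number and in a fit of all 24 libraries (FDR of 0.0565 to 0.178). In TRDKO61 the value of this step was −2.45 ± 0.63, which did not pass in edgeR (FDR = 0.0708) and was called by DESeq2 (FDR = 0.0222). The WT values were 0.37 ± 0.70 in WT61 and −0.52 ± 0.68 in WT56.

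Of the signalling pair, *il1r1* showed a moderate and regular course. Its 6 hpa libraries had 162 and 111 CPM in TRDKO61, 85.2 and 114 in WT61, 113 and 123 in TRDKO56 and 95.8 and 115 in WT56. At 0 hpa the same groups had 63.2 and 73.7, 54.8 and 56.2, 28.4 and 45.0, and 42.4 and 35.2 CPM. In each group the libraries of the 2 times did not overlap. By 24 hpa the level was intermediate, 66.9 to 94.5 CPM over the 8 libraries. The rise at 6 hpa was called in TRDKO61 (1.02 ± 0.25, FDR = 0.0217), TRDKO56 (1.67 ± 0.25, FDR = 0.00221) and WT56 (1.43 ± 0.18, FDR = 0.00258), while the WT61 value of 0.85 ± 0.17 had an FDR of 0.027 but a change under the fold limit, which it passed without the first 6 hpa library (1.03). The TRDKO61 call sat at the limit and was lost under 4 of the 6 other settings (0.90 at the lowest) and without either 0 hpa library or the first 6 hpa library (0.72 at the lowest). Both stage 56 calls remained under every alternative. For the accessory chain *il1rap*, the same step passed in TRDKO56 (1.19 ± 0.21, FDR = 0.00538) and WT56 (1.15 ± 0.14, FDR = 0.00227), the TRDKO56 call being lost without the first 0 hpa library (FDR = 0.0649). Its values were 0.77 ± 0.21 in TRDKO61 and 0.50 ± 0.14 in WT61.

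The accessory gene *il1rap* had 192 and 148 CPM at 0 hpa, 333 and 238 at 6 hpa and 126 and 155 at 24 hpa in TRDKO61. In WT61 it had 111 and 121 CPM at 0 hpa, 153 and 174 at 6 hpa and 135 and 145 at 24 hpa. Stage 61 knockout tails therefore stood above wild-type tails at 0 and at 6 hpa, without overlap, and overlapped them at 24 hpa. The difference TRDKO61 minus WT61 at 6 hpa was 0.80 ± 0.17 (FDR = 0.0028), under the fold limit. In TRDKO56 the values were 82.7 and 87.1 CPM at 0 hpa, 185 and 205 at 6 hpa and 118 and 91.8 at 24 hpa. WT56 had 102 and 89.6, then 222 and 204, then 118 and 117 CPM at the 3 times. *il1rap* was called higher in TRDKO61 than in TRDKO56 at 0 hpa (1.00 ± 0.17, FDR = 0.000866), a value at the fold limit that fell under it with RLE or upper-quartile factors, a term for the replicate number, the 4-library fit and without the first 0 hpa library of either group (0.81 at the lowest). From 6 to 24 hpa it fell in TRDKO61 (−1.02 ± 0.21, FDR = 0.0394), which was lost without any 1 of the 4 libraries (−1.24 to −0.76) and with upper-quartile factors (−0.96). The call was also lost with a term for the replicate number (FDR = 0.0534). The values in TRDKO56 (−0.92) and WT56 (−0.88) were under the fold limit, and that in WT61 was −0.22. Under the 6 other edgeR or DESeq2 settings, the FDR was at most 0.0244 in TRDKO56 and 0.00529 in WT56. In each of these stage 56 groups the 24 hpa libraries lay below the 6 hpa libraries.

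The decoy receptor gene *il1r2* had the largest log2 FC of the 10 genes between 0 and 6 hpa in TRDKO61, WT61 and WT56, and in TRDKO56 its value of 4.21 stood beside that of *il1b* (4.23). At 6 hpa it reached 84.1 and 43.9 CPM in TRDKO61, 12.5 and 43.3 in WT61, 35.2 and 32.5 in TRDKO56 and 11.9 and 27.8 in WT56. At 0 hpa the corresponding libraries had 3.20 and 3.44, 1.91 and 0.174, 2.73 and 1.103, and 1.61 and 1.55 CPM, and the second WT61 library at 0 hpa held only 3 counts of the gene. Each of the 8 libraries at 6 hpa was above each of the 8 at 0 hpa. The change was called in all groups, at 4.29 ± 0.38 in TRDKO61 (FDR = 0.000116), 4.96 ± 0.90 in WT61 (FDR = 0.0186), 4.21 ± 0.42 in TRDKO56 (FDR = 0.000312) and 3.64 ± 0.95 in WT56 (FDR = 0.0316). Both TRDKO calls remained under every alternative. The WT61 call was lost without either 0 hpa library or the second 6 hpa library (3.79 to 7.21), and the WT56 call without any 1 of its libraries (2.90 to 4.13), and neither passed without the low-count filter (FDR = 0.119 in WT61 and 0.174 in WT56). With a term for the replicate number the WT56 value had an FDR of 0.0735. At 24 hpa *il1r2* was at 9.63 and 10.5 CPM in TRDKO61, 8.82 and 14.7 in WT61, 13.9 and 5.89 in TRDKO56 and 14.9 and 18.6 in WT56. It had fallen from the 6 hpa level in TRDKO61 (−2.66 ± 0.41, FDR = 0.0241) and TRDKO56 (−1.79 ± 0.41, FDR = 0.0197), and the WT values of −1.26 ± 0.61 (WT61) and −0.27 ± 0.60 (WT56) did not pass. Without 1 library the TRDKO61 call was lost in each of 4 cases (−3.06 to −2.12) and the TRDKO56 call in 3 of 4 (−2.54 to −1.31).

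Both IL-18 receptor genes had low levels at 0 hpa and higher ones at 6 hpa. The binding chain *il18r1.1* had 9.69 and 12.6 CPM at 6 hpa in TRDKO61, 3.18 and 5.37 in WT61, 8.12 and 8.03 in TRDKO56 and 5.27 and 8.73 in WT56. Its 0 hpa libraries had 2.64 and 2.26, 0.957 and 1.04, 2.73 and 2.97, and 2.41 and 4.95 CPM in these groups. The change was 2.20 ± 0.26 in TRDKO61 (FDR = 0.000588), 2.06 ± 0.46 in WT61 (FDR = 0.0341), 1.48 ± 0.27 in TRDKO56 (FDR = 0.00619) and, not past the test, 1.08 ± 0.45 in WT56 (FDR = 0.126). By 24 hpa it had 5.27 and 2.997 CPM in TRDKO61, 2.68 and 2.77 in WT61, 2.72 and 2.47 in TRDKO56 and 3.74 and 5.96 in WT56. That fall was called in TRDKO61 (−1.42 ± 0.30, FDR = 0.039) and TRDKO56 (−1.66 ± 0.32, FDR = 0.00944). At 24 hpa the WT61 level was still above that of 0 hpa (1.40 ± 0.40, FDR = 0.0278). Of these calls, that of TRDKO61 at 6 hpa remained without any 1 library. The WT61 rise was lost without either 0 hpa library or the second 6 hpa library (1.62 to 2.39), the TRDKO56 rise without either 0 hpa library (1.43 to 1.55), and the later calls without 3 or all 4 of their libraries in turn. With a term for the replicate number the TRDKO61 fall was also lost (FDR = 0.0520).

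The accessory chain *il18rap*, needed for IL-18 signalling, had 19.9 and 28.6 CPM at 6 hpa in TRDKO61, 4.92 and 9.17 in WT61, 17.4 and 12.3 in TRDKO56 and 8.65 and 20.4 in WT56. At 0 hpa it had 2.49 and 2.35, 1.44 and 0.869, 1.86 and 2.71, and 2.51 and 0.927 CPM. No 6 hpa library overlapped a 0 hpa library, and the rise was called in each group, at 3.34 ± 0.30 in TRDKO61 (FDR = 9.05e-05), 2.65 ± 0.58 in WT61 (FDR = 0.0332), 2.66 ± 0.31 in TRDKO56 (FDR = 0.000516) and 2.86 ± 0.59 in WT56 (FDR = 0.014). At 24 hpa the level was 13.4 and 6.54 CPM in TRDKO61, 6.43 and 7.23 in WT61, 10.7 and 5.62 in TRDKO56 and 11.6 and 14.1 in WT56. The gene was the only member called higher at 24 than at 0 hpa in all 4 groups, by 2.04 ± 0.43 in TRDKO61 (FDR = 0.022), 2.59 ± 0.32 in WT61 (FDR = 0.000156), 1.76 ± 0.46 in TRDKO56 (FDR = 0.0176) and 2.62 ± 0.32 in WT56 (FDR = 5.27e-05). Between 6 and 24 hpa its change passed in no group in edgeR, while DESeq2 called the fall in TRDKO61 (FDR = 0.0190), with edgeR log2 FC of −1.28 ± 0.40 in TRDKO61, −0.03 ± 0.44 in WT61, −0.89 ± 0.41 in TRDKO56 and −0.20 ± 0.42 in WT56. Leaving out 1 library left the 6 hpa calls of the TRDKO groups and the 24 hpa calls of the WT groups in place. Each of the other 4 calls was lost without either 0 hpa library, and without the second 6 hpa library in the WT groups or the first 24 hpa library in the TRDKO groups, with the lowest values at 2.12 in WT61, 2.11 in WT56, 1.42 in TRDKO61 and 1.22 in TRDKO56.

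Among the TNF receptors, the decoy gene *tnfrsf6b* rose at 6 hpa in every group, to 42.8 and 50.0 CPM in TRDKO61, 21.7 and 24.5 in WT61, 36.4 and 64.5 in TRDKO56 and 49.4 and 52.6 in WT56. At 0 hpa the libraries had 12.7 and 7.33, 12.5 and 9.38, 11.3 and 10.2, and 27.6 and 21.6 CPM. WT56 therefore began at a higher level than the other groups, with no overlap. The changes were 2.21 ± 0.31 in TRDKO61 (FDR = 0.00173), 1.09 ± 0.18 in WT61 (FDR = 0.014), 2.22 ± 0.32 in TRDKO56 (FDR = 0.00193) and 1.03 ± 0.18 in WT56 (FDR = 0.00773). At 24 hpa the gene was at 15.99 and 16.2 CPM in TRDKO61, 14.5 and 16.05 in WT61, 20.9 and 17.4 in TRDKO56 and 37.2 and 26.5 in WT56, a fall from 6 hpa that was called in TRDKO61 (−1.53 ± 0.25, FDR = 0.0241) and TRDKO56 (−1.42 ± 0.25, FDR = 0.00729). Both 6 hpa calls of the TRDKO groups remained under every alternative. The WT61 rise was lost without either 0 hpa library or the second 6 hpa library (0.86 at the lowest), the WT56 rise with upper-quartile factors (0.98) and without the second library of either time (0.89 at the lowest), the TRDKO61 fall without any 1 library (−1.63 to −1.41) and the TRDKO56 fall without the second library of either time (−0.93 at the smallest).

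The injury-induced receptor gene *tnfrsf12a* had 183 and 158 CPM at 6 hpa in TRDKO61, 94.1 and 148 in WT61, 173 and 290.4 in TRDKO56 and 184 and 290.4 in WT56. At 0 hpa these groups had 62.4 and 28.6, 115 and 62.7, 43.9 and 40.8, and 81.9 and 93.4 CPM. Only in WT61 did the libraries of the 2 times overlap. The rise was called in TRDKO61 (1.92 ± 0.35, FDR = 0.00829), TRDKO56 (2.44 ± 0.36, FDR = 0.00271) and WT56 (1.44 ± 0.34, FDR = 0.0228), and the WT61 value was 0.45 ± 0.33 (FDR = 0.429). Both TRDKO calls remained without any 1 library, while that of WT56 was lost without either 0 hpa library or the second 6 hpa library (1.07 to 1.74) and without the low-count filter (FDR = 0.0652). At 24 hpa *tnfrsf12a* was at 53.1 and 88.2 CPM in TRDKO61, 56.6 and 86.3 in WT61, 91.8 and 77.0 in TRDKO56 and 104 and 99.4 in WT56. The fall from 6 hpa was called in TRDKO56 (−1.48 ± 0.30, FDR = 0.0118) and WT56 (−1.24 ± 0.31, FDR = 0.0244) and had an FDR of 0.0517 in TRDKO61 (−1.27 ± 0.30), where it was called by DESeq2 (FDR = 0.000777), without the filter and in the fit of all 24 libraries. Both calls were lost without the second 6 hpa library or either 24 hpa library, the values lying between −1.78 and −1.04 in TRDKO56 and between −1.49 and −0.85 in WT56.

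For *ltbr*, the lymphotoxin receptor gene, the 6 hpa libraries had 214 and 169.9 CPM in TRDKO61, 118 and 173 in WT61, 132 and 174 in TRDKO56 and 143 and 161 in WT56. The 0 hpa libraries had 76.9 and 61.9, 84.9 and 78.3, 53.2 and 58.3, and 65.8 and 60.3 CPM. There was no overlap between the times in any group. The rise was 1.49 ± 0.21 in TRDKO61 (FDR = 0.00143), 1.45 ± 0.21 in TRDKO56 (FDR = 0.00167) and 1.26 ± 0.19 in WT56 (FDR = 0.00433), and in WT61 the value of 0.83 ± 0.18 had an FDR of 0.0328 with a change under the fold limit. Of the 3 calls, leaving out 1 library ended that of WT56, lost without the second 0 hpa library (values between 1.17 and 1.35). Without the first 6 hpa library WT61 was called as well (1.07, FDR = 0.00271). At 24 hpa all libraries were between 81.8 and 135 CPM, and no change from 6 hpa was called.

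The gene *tnfrsf4*, encoding the T-cell costimulatory receptor OX40, was the only member called higher at 24 than at 6 hpa, in 3 of the 4 groups. It had 2 to 175 counts in a library. At 24 hpa the libraries had 2.41 and 2.05 CPM in TRDKO61, 8.82 and 7.03 in WT61, 8.72 and 11.98 in TRDKO56 and 8.33 and 7.94 in WT56. At 6 hpa they had 1.89 and 2.36, 0.997 and 1.65, 2.42 and 2.20, and 0.995 and 1.19 CPM. At 0 hpa the levels were 1.22 and 1.09, 1.15 and 0.174, 0.992 and 0.679, and 1.11 and 0.618 CPM. In WT61, TRDKO56 and WT56 both 24 hpa libraries lay far above all earlier ones, and in TRDKO61 they overlapped those of 6 hpa. The change from 6 to 24 hpa was 2.61 ± 0.30 in WT61 (FDR = 0.019), 2.13 ± 0.30 in TRDKO56 (FDR = 0.00367) and 2.86 ± 0.32 in WT56 (FDR = 0.00137), against 0.06 ± 0.30 in TRDKO61 (FDR = 0.926). The stage 56 calls remained under every alternative, and the WT61 call was lost without either 24 hpa library (2.27 to 2.99). Against 0 hpa, the 24 hpa level was higher by 3.79 ± 0.46 in WT61 (FDR = 0.000188), 3.60 ± 0.35 in TRDKO56 (FDR = 0.000303) and 3.02 ± 0.50 in WT56 (FDR = 0.000522), calls that also remained under every alternative. The only called change at 6 hpa was in TRDKO56 (1.48 ± 0.42, FDR = 0.0386), and it was lost without any 1 of the 4 libraries (1.20 to 1.75) and with DESeq2 (FDR = 0.121). In edgeR it was also lost with a term for the replicate number (FDR = 0.0568). The summed level of 9 lymphocyte markers at 24 hpa was 11.7 to 23.2 CPM in TRDKO61, 8.62 to 10.5 in WT61, 8.29 to 8.61 in TRDKO56 and 11.4 to 12.4 in WT56, so the group with the low *tnfrsf4* had no lower sum.

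Counted over the members, the step between 0 and 6 hpa, when wounds heal, held 7 DEGs in TRDKO61, 4 in WT61, 10 in TRDKO56 and 8 in WT56, all of them higher at 6 hpa. Over all genes tested, 5.34% were called higher at 6 hpa in TRDKO61, 2.26% in WT61, 5.11% in TRDKO56 and 4.69% in WT56. The members' median log2 FC was 1.87 in TRDKO61, 1.07 in WT61, 1.95 in TRDKO56 and 1.35 in WT56, beside medians between −0.038 and 0.001 over all genes tested. All 10 log2 FC were positive in each group. The members were chosen with earlier results of these data known, so their counts and medians here and below are descriptive. The genes called in all 4 groups were *il1r2*, *il18rap* and *tnfrsf6b*. The WT61 count was 0 without the first or second 0 hpa library or the second 6 hpa library and 6 without the first 6 hpa library, and the WT56 count was between 2 and 6 when any 1 of its libraries was left out. Without 1 library the count was 6 to 7 in TRDKO61 and 6 to 9 in TRDKO56.

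**Figure D2:**
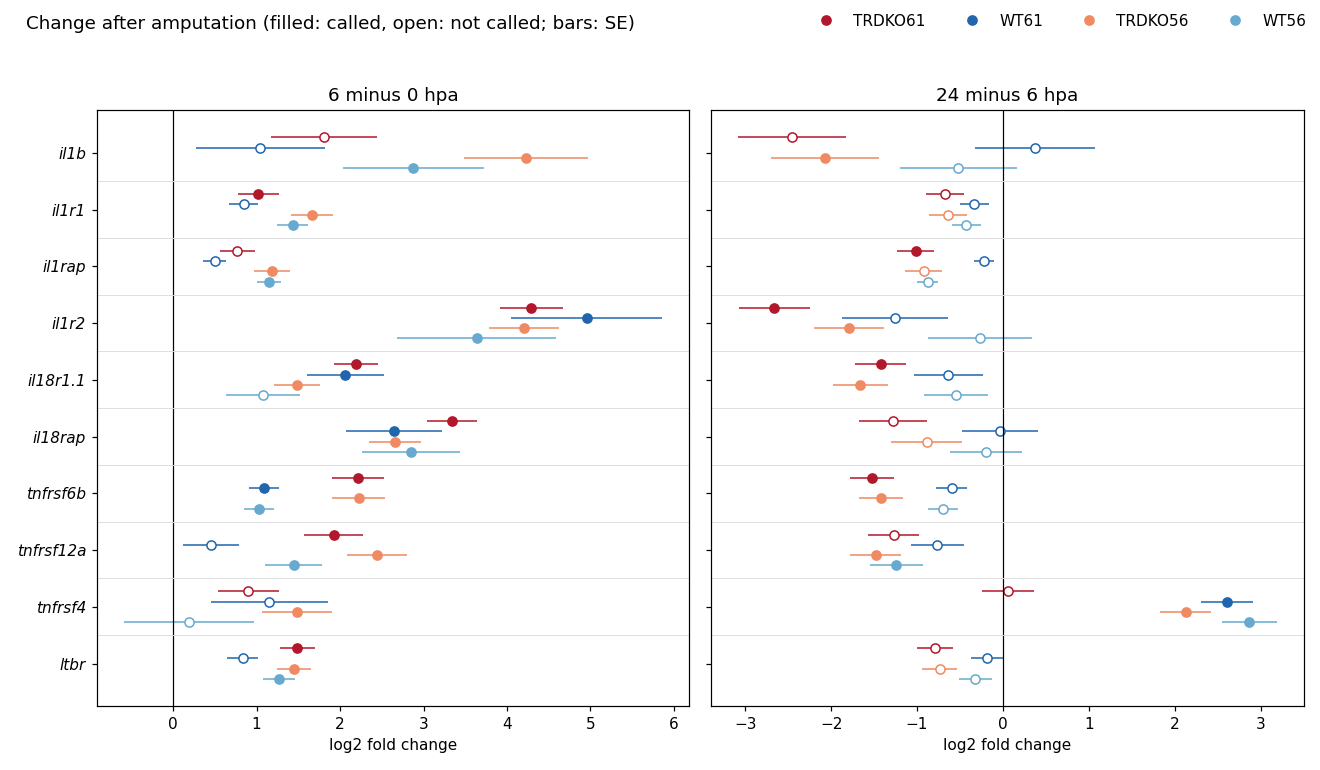
Change of each gene between 6 and 0 hpa and between 24 and 6 hpa (log2 FC with standard error) in the 4 animal groups; filled points are DEGs. All points of the first step are above 0, those of *il1r2* between 3.64 and 4.96, and in the second step *tnfrsf4* is the only gene with filled points above 0.

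Leukocyte markers moved with this step. Their summed level at 0, 6 and 24 hpa was 811 to 863, 2066 to 2649 and 1278 to 1662 CPM in TRDKO61, 1085 to 1251, 1434 to 2198 and 1552 to 1615 CPM in WT61, 769 to 788, 1652 to 1660 and 1202 to 1424 CPM in TRDKO56, and 614, 1048 to 1360 and 1434 to 1900 CPM in WT56. Of 20 leukocyte markers tested, 15 rose at 6 hpa in TRDKO61, 5 in WT61, 12 in TRDKO56 and 11 in WT56. Without 1 library the number was 0 to 10 in WT61 and 1 to 12 in WT56. Over the 24 libraries, which share the times and groups, Pearson's r between a member's log2(CPM + 1) and the leukocyte sum was between 0.45 (*tnfrsf4*) and 0.85 (*ltbr*). The part of these markers in the members' changes was not tested.

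The step between 6 and 24 hpa, when the blastema forms, held 4 DEGs among the members in TRDKO61, 1 in WT61, 6 in TRDKO56 and 2 in WT56. Over all genes tested, 2.85% were called in either direction in TRDKO61, 1.31% in WT61, 12.5% in TRDKO56 and 13.2% in WT56. In TRDKO61 all 4 fell (*il1r2*, *il1rap*, *il18r1.1* and *tnfrsf6b*). In TRDKO56 *il1b*, *il1r2*, *il18r1.1*, *tnfrsf6b* and *tnfrsf12a* fell and *tnfrsf4* rose. The WT56 DEGs were *tnfrsf12a*, which fell, and *tnfrsf4*, which rose, and the WT61 DEG was *tnfrsf4*. The median log2 FC of the members was −1.28 in TRDKO61, −0.28 in WT61, −1.17 in TRDKO56 and −0.47 in WT56. In TRDKO61 the count was 0 without either 6 hpa library or the first 24 hpa library and 1 without the second, and DESeq2 called 7 there. In TRDKO56 without 1 library it was 1 to 5. Markers of other tissues moved with this step. All 10 skeletal muscle markers tested fell in TRDKO56 (median −2.36, 4 to 7 without 1 library) and in WT56 (−2.59, 6 to 8), while their median was −0.03 in TRDKO61 and −0.75 in WT61. The summed muscle level at 24 hpa was 4887 to 5246 CPM in TRDKO56 and 5965 to 6654 CPM in WT56, against 17588 to 19088 and 23156 to 26046 CPM at 6 hpa in these groups. Of 10 neural markers, 6 fell in TRDKO56 (1 to 5 without 1 library) and 5 in WT56 (2 to 5). Of 20 leukocyte markers, 2 fell in TRDKO61, 2 fell in TRDKO56 and 3 rose in WT56. Their part in the members' changes was not tested.

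Set against 0 hpa, the 24 hpa libraries had 1 member DEG in TRDKO61, 4 in WT61, 5 in TRDKO56 and 3 in WT56, each higher at 24 hpa. The shares of all genes called higher were 3.24%, 3.86%, 5.35% and 7.67% in these groups. Beside *il18rap* and *tnfrsf4*, the decoy *il1r2* was still higher in WT61 (3.69 ± 0.65, FDR = 0.00773), TRDKO56 (2.39 ± 0.49, FDR = 0.00706) and WT56 (3.36 ± 0.67, FDR = 0.00567), and *il1b* in TRDKO56 (2.14 ± 0.56, FDR = 0.0255). *il1r1* in TRDKO56 was at the fold limit (1.01 ± 0.22, FDR = 0.00979). The *il1r2* call remained under every alternative in WT61, and it was lost without the second 0 hpa library in TRDKO56 (1.64 at the lowest) and without the first in WT56 (3.22 at the lowest). The *il1b* call was lost without 3 of its 4 libraries in turn (1.60 at the lowest), without the filter (FDR = 0.103) and in the fit of all 24 libraries (FDR = 0.0730). The *il1r1* call was lost without the first library of either time (0.73 at the lowest) and with upper-quartile factors (0.93). Over the same interval 9 of 20 leukocyte markers rose in TRDKO61, 5 in WT61, 8 in TRDKO56 and 14 in WT56, and 1 fell in TRDKO56. Of 10 skeletal muscle markers, 8 fell in WT61 (1 to 8 without 1 library), 9 in TRDKO56 (6 to 9) and 10 in WT56 (10 in each), and 1 rose in TRDKO61, where their median was −0.50. Of 10 neural markers, 4 fell in WT61, 5 in TRDKO56 and 5 in WT56, while 1 rose in WT61 and 1 in WT56. Their part in these differences was not tested.

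The knockout was compared with the wild type at each time. The parents of TRDKO tadpoles carried no intact TRα allele, so the wild-type tadpoles came from other parents. Genotype and parentage therefore cannot be told apart. At 0 hpa, 1 member differed between TRDKO61 and WT61, beside 10.6% of all genes called. This was *il18r1.1*, higher in TRDKO61 by 1.29 ± 0.42 (FDR = 0.0344), a call lost without any 1 of the 4 libraries (1.16 to 1.38). *il1b* at 0 hpa had a log2 FC of 1.88 ± 0.82 that did not pass (FDR = 0.111). At 6 hpa, 4 members were higher in TRDKO61 than in WT61, beside 10% of all genes called in either direction (830 higher in TRDKO61 and 845 lower). The shares given for genotype and stage comparisons all count both directions. These were *il1b* (2.61 ± 0.81, FDR = 0.0317), *il18rap* (1.80 ± 0.43, FDR = 0.00722), *il18r1.1* (1.40 ± 0.33, FDR = 0.00613) and *tnfrsf6b* (1.01 ± 0.25, FDR = 0.00836). For all 4 genes the lower TRDKO61 library was above the higher WT61 library. All 10 log2 FC were positive, with a median of 0.91, but *il1r2* (1.20 ± 0.58, FDR = 0.152) and *tnfrsf12a* (0.50 ± 0.38, FDR = 0.376) did not pass. At 24 hpa *tnfrsf4* was the only member called, lower in TRDKO61 by −1.83 ± 0.36 (FDR = 0.00322), beside 5.22% of all genes, and this call remained under every alternative (−1.98 to −1.65, FDR of at most 0.0452).

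The 6 hpa difference depended on single libraries. Without the first WT61 library at 6 hpa none of the 4 members was called, and without the second 5 were. Of these 4, the *il1b* call was lost without the first TRDKO61 library. The *tnfrsf6b* call was lost without the second (0.89 at the lowest when 1 library was left out). The *il1b* value was 2.02 (FDR = 0.202) without the first WT61 library and 1.90 (FDR = 0.191) without the first TRDKO61 library, and the *tnfrsf6b* value fell under the fold limit with RLE (0.99), upper-quartile (0.98) and DESeq2 (0.99) size factors. Fitted on the 4 libraries of the comparison alone, 2 members were called, since *il1b* (FDR = 0.0716) and *il18r1.1* (FDR = 0.0641) did not pass, and without the low-count filter *il1b* had an FDR of 0.0683. At the same time 5 of 20 leukocyte markers were higher in TRDKO61 than in WT61 (1 to 7 without 1 library), and 3 of 6 lymphocyte markers were (0 to 3 without 1 library and under the other settings). Of 10 neural markers 7 were lower (3 to 7 in these cases), as were 3 of 10 skeletal muscle markers (0 to 6), and the summed neural level over the 3 times was 122 to 144 CPM in TRDKO61 and 165 to 225 CPM in WT61. Their part in the difference was not tested.

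**Figure D3:**
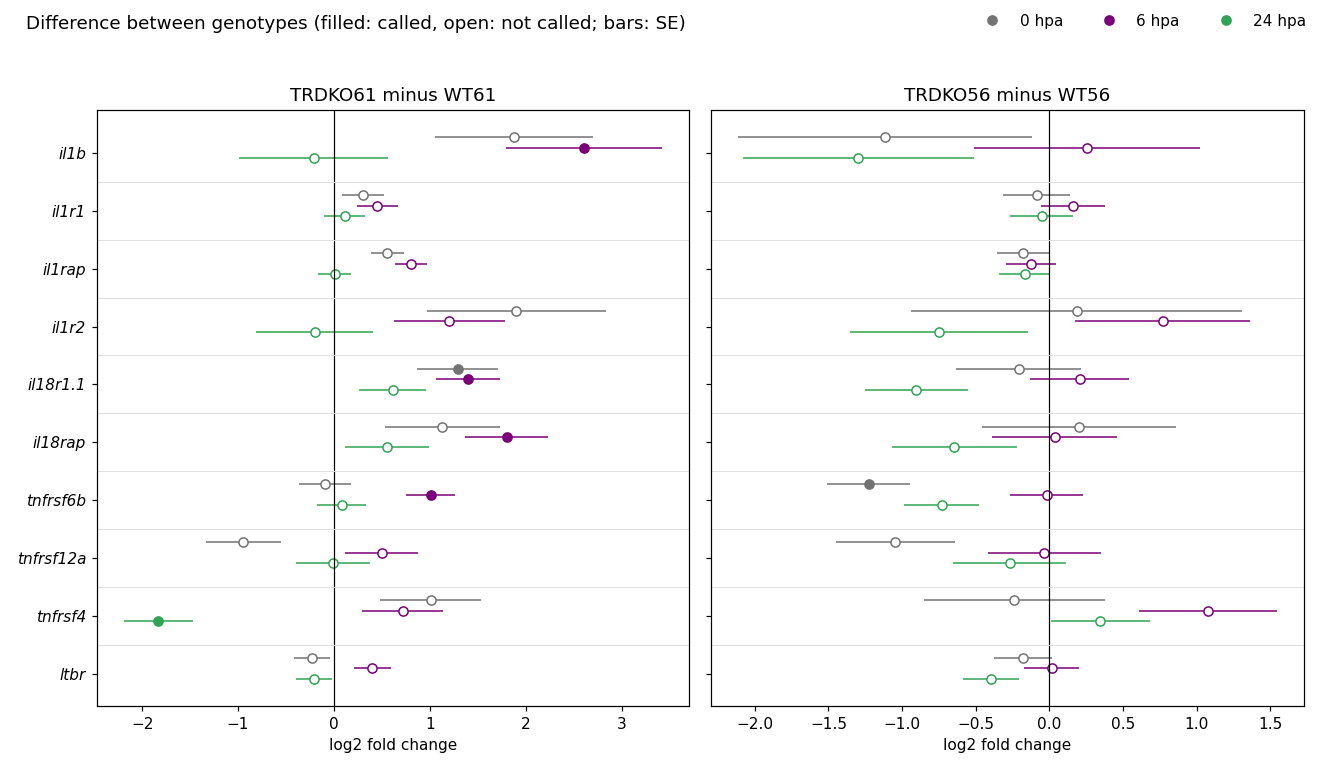
Difference TRDKO61 minus WT61 and TRDKO56 minus WT56 of each gene at 0, 6 and 24 hpa (log2 FC with standard error); filled points are DEGs. At stage 61 and 6 hpa *il1b*, *il18rap*, *il18r1.1* and *tnfrsf6b* are filled above 0, at 24 hpa *tnfrsf4* is filled at −1.83, and at stage 56 the only filled point is *tnfrsf6b* at 0 hpa.

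At stage 56 the genotypes differed in 1 member at 0 hpa, *tnfrsf6b*, which was lower in TRDKO56 than in WT56 by −1.23 ± 0.28 (FDR = 0.0226), beside 1.95% of all genes. The call was lost without any 1 of the 4 libraries (−1.37 to −1.01). The second WT56 library at 0 hpa, with 70 counts of the gene, had the lowest total of the series (3956148 counts). At 6 and 24 hpa edgeR and DESeq2 called 0 members, beside 1.53% and 1.84% of all genes called. An unadjusted edgeR p under 0.05 was held by 1 and 2 of the 10 members, beside 2522 and 2451 of 16743 genes.

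Between stages, TRDKO61 and TRDKO56 differed at 0 hpa in *il1b* (3.34 ± 0.92, FDR = 0.022) and *il1rap*, both higher in TRDKO61, beside 8.84% of all genes called. The *il1b* call was lost without 3 of the 4 libraries in turn, either TRDKO56 library or the first TRDKO61 library (2.60 at the lowest), and without the filter (FDR = 0.0508). At 6 hpa edgeR and DESeq2 called 0 members, where 10.1% of all genes were called. An unadjusted edgeR p under 0.05 was held there by 1 member and by 5465 of 16743 genes. At 24 hpa *tnfrsf4* was lower in TRDKO61 than in TRDKO56 by −2.21 ± 0.36 (FDR = 0.000745), beside 7.53%, a call that remained under every alternative. This comparison shares the TRDKO61 libraries with that against WT61. WT61 was lower than WT56 in *tnfrsf6b* at all 3 times, by −1.20 ± 0.28 at 0 hpa (FDR = 0.00464), −1.14 ± 0.25 at 6 hpa (FDR = 0.00214) and −1.06 ± 0.26 at 24 hpa (FDR = 0.00606). The 0 hpa difference shares the WT56 libraries with that between TRDKO56 and WT56. The value of 6 hpa remained called under every alternative, that of 0 hpa was lost without the first WT56 or the second WT61 library (−0.99 at the smallest), and that of 24 hpa without the first library of either group (−0.80 at the smallest). At 0 hpa *il18r1.1* was also lower in WT61 (−1.71 ± 0.46, FDR = 0.0129), a call lost without the second WT56 library or either WT61 library (−1.25 at the smallest). All genes called between WT61 and WT56 made up 10.6% at 0 hpa, 16% at 6 hpa and 9.90% at 24 hpa. Of 20 leukocyte markers, 7 were higher in WT61 than in WT56 at 0 hpa, 4 at 6 hpa and, by edgeR as by DESeq2, 0 at 24 hpa. At 24 hpa 8 of them had an unadjusted edgeR p under 0.05, beside 6005 of 16743 genes. Of 10 skeletal muscle markers, 4 were lower in WT61 than in WT56 at 0 hpa (0 to 4 without 1 library) and 7 at 6 hpa (5 to 8), while 5 and 8 were lower in TRDKO61 than in TRDKO56 at these times. Of 10 neural markers, 6 and 7 were lower in TRDKO61 than in TRDKO56 at 0 and 6 hpa. Their part in the members' differences was not tested.

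Whether the course over time itself differed was tested by interactions, and edgeR called 0 members in any of the 6. For the change in TRDKO61 minus that in WT61, 0% of all genes were called for 6 and 0 hpa, 0% for 24 and 6 hpa and 0.0363% for 24 and 0 hpa, and for WT61 minus WT56 0.0251%, 0.0810% and 5.75%. At an unadjusted p under 0.05 there were 2, 4 and 3 members for TRDKO61 minus WT61 at these pairs of times and 2, 1 and 1 for WT61 minus WT56. Over all genes, 969 of 16307, 953 of 16320 and 1584 of 16509 had such a p for TRDKO61 minus WT61. For WT61 minus WT56 these were 1827 of 15909, 3025 of 16049 and 3747 of 15992. For the 2 pairs of times without an edgeR call over all genes, DESeq2 called 78 and 72 genes. For *tnfrsf4* the value for 24 and 6 hpa was −2.53 ± 0.48 (edgeR FDR = 0.355), and DESeq2 called this interaction (FDR = 0.018) and that for 24 and 0 hpa (edgeR −2.82 ± 0.77, FDR = 0.266, DESeq2 FDR = 0.0393). No other member was called by DESeq2. The *il1b* value for 24 and 6 hpa was −2.81 ± 0.94 (FDR = 0.752), and for 6 and 0 hpa *tnfrsf6b* had 1.12 ± 0.36 (FDR = 0.716) and *tnfrsf12a* 1.47 ± 0.58 (FDR = 0.818). The differing numbers of DEGs in TRDKO61 and WT61 at 6 hpa are thus not shown to be a difference in response.

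Other genes of these pathways were read from lists. Of 15 to 16 tested genes of the IL-1 and IL-18 pathway (members left out), 4 rose between 0 and 6 hpa in TRDKO61 and 1 in each other group, and none fell. Over all genes tested, 5.34% were called higher in TRDKO61, 2.26% in WT61, 5.11% in TRDKO56 and 4.69% in WT56. These shares also stand beside the 6 hpa rises of the lists below. The gene for the IL-18 binding protein, *il18bp*, a soluble inhibitor of IL-18, rose in all 4, by 2.66 in TRDKO61, 3.99 in WT61, 2.20 in TRDKO56 and 1.48 in WT56 on the log2 scale. In TRDKO61 the kinase gene *irak2* (1.39) and the adaptor genes *pycard* (1.17) and *myd88* (1.08) rose as well, each call being lost without 1 or both of the 0 hpa libraries. The *il18bp* calls remained without any 1 library except in WT56, where the second library of either time was needed. The list's median was 0.25 in TRDKO61, 0.09 in WT61, 0.07 in TRDKO56 and 0.16 in WT56. From 6 to 24 hpa *pycard*, which links inflammasome sensors to caspase-1, rose in TRDKO56 (1.16) and WT56 (1.38), as did *casp1* (1.11 and 1.45), which encodes the enzyme that matures IL-1β. Of these 4 calls only that of *casp1* in WT56 was lost without 1 library, the second of 24 hpa. *il18bp* fell in WT61 (−1.43) and TRDKO56 (−1.68), lost without the second 6 hpa library or either 24 hpa library. In TRDKO61 *irak2* (−1.23) and *myd88* (−1.02) fell, both calls being lost without any 1 library. *irak1bp1* rose in TRDKO56 (1.24), a call lost without any 1 library and with DESeq2. At 24 hpa *pycard* was above its 0 hpa level in all groups (1.42 in TRDKO61, 1.59 in WT61, 1.45 in TRDKO56 and 1.68 in WT56).

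Of 11 to 12 TNF superfamily ligand genes, 4 rose at 6 hpa in TRDKO61, 1 in WT61, 2 in TRDKO56 and 0 in WT56, where 3 had an unadjusted edgeR p under 0.05 and DESeq2 called 1. Such a p was held in WT56 by 5407 of 15909 genes. *tnfsf13b*, encoding the B-cell survival factor BAFF, rose in TRDKO61 (3.57), WT61 (2.91) and TRDKO56 (3.41). In TRDKO61 *cd40lg* (2.55), *tnfsf11* (1.57) and *tnf* (1.00) also rose, the last at the fold limit and called by only 1 of the 6 alternatives that use all libraries. The *tnfsf13b* rises of TRDKO61 and TRDKO56 remained called without any 1 library, and that of WT61 was lost without either 0 hpa library, as were those of *cd40lg* and, without the second, *tnfsf11*. At 6 hpa 4 ligand genes were higher in TRDKO61 than in WT61, *tnfsf13b* by 1.99, *cd40lg* by 1.59, *tnfsf15* by 1.26 and *tnf* by 1.14, a count of 0 to 4 under the other settings. Of all 16743 genes tested, 830 were called higher in TRDKO61 in this comparison. The 14 other TNF receptor genes tested included 5 that rose at 6 hpa in TRDKO61, 2 in WT61, 5 in TRDKO56 and 3 in WT56, and 1 that fell in TRDKO56, *tnfrsf19* (−1.02), which was named after its value was seen. The costimulatory receptor gene *tnfrsf9* rose in TRDKO61 (4.95), WT61 (4.38) and TRDKO56 (4.94), the osteoprotegerin gene *tnfrsf11b* in WT61 (2.36), TRDKO56 (3.70) and WT56 (2.47), *tnfrsf25* in TRDKO61 (1.84, not called by DESeq2) and the death receptor gene *fas* in TRDKO61 (1.47), TRDKO56 (1.17) and WT56 (1.15). Of these rises, those of *tnfrsf9* in both TRDKO groups, *tnfrsf11b* in TRDKO56 and *fas* in TRDKO61 remained called without any 1 library, and each of the others was lost without either 0 hpa library. From 6 to 24 hpa the ectodysplasin receptor gene *edar* rose in TRDKO61 (1.68), TRDKO56 (2.09) and WT56 (3.01), the TRDKO61 call being lost without 3 of its 4 libraries in turn. In that step *tnfsf13b* fell in TRDKO61 (−1.54) and TRDKO56 (−1.51), *tnfrsf11b* (−1.60) and *tnfrsf10b* (−1.12) fell in TRDKO56 and *lta* rose in WT56 (1.49), each call being lost without 3 or all 4 libraries in turn.

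Of 27 NF-kB signalling genes, 5 rose at 6 hpa in TRDKO61, 1 in WT61 and 0 in TRDKO56 and WT56 by edgeR as by DESeq2, where 6 and 10 had an unadjusted edgeR p under 0.05, while 1 fell in WT56. Such a p was held by 4973 of 16042 genes in TRDKO56 and by 5407 of 15909 in WT56. The largest changes in TRDKO61 were those of *bcl3* (1.81), *traf3* (1.54), *traf1* (1.47) and *relb* (1.30), of which only that of *traf1* was lost without 1 library, either one of 0 hpa. In WT61 *bcl3*, a nuclear cofactor of NF-kB, rose by 1.52, a call lost without either 0 hpa library, and in WT56 the inhibitor gene *nfkbia* changed by −1.62, a call lost without any 1 of its libraries. The list's median was 0.66 in TRDKO61, 0.22 in WT61, 0.15 in TRDKO56 and 0.004 in WT56. By 24 hpa *tnip1* (−1.64), *traf1* (−1.56) and *bcl3* (−1.23) had fallen from 6 hpa in TRDKO61, calls lost without 3 or all 4 libraries in turn, and between TRDKO61 and WT61 at 6 hpa only *traf5* was called (1.44). The number of NF-kB genes that rose at 6 hpa in TRDKO61 was 4 to 6 without 1 library.

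The members' courses were compared with those of all 16743 genes tested in the fit of 24 libraries by Pearson's r of log2(CPM + 1) over the 12 condition means, which share their times and groups. The nearest genes were *tnfrsf1a* for *il1b* (r = 0.946), *rab7b* for *il1r1* (0.989), *mmp25* for *il1r2* (0.987), *card9* for *tnfrsf6b* (0.953), *acsl4* for *tnfrsf12a* (0.994) and *adam28.2* for *ltbr* (0.977). *il1rap* was nearest to LOC100135070 (0.951), *il18r1.1* to *ptprr* (0.953) and *il18rap* to LOC100490589 (0.987). Second in this order were *slc28a3* for *il1b* (0.919), *cdcp1* for *il1r1* (0.972), LOC116406577 for *il1r2* (0.986), *adprm* for *il1rap* (0.949), *slc44a5* for *il18r1.1* (0.946), LOC100493381 for *il18rap* (0.987), *tcim* for *tnfrsf6b* (0.943), *plk3* for *tnfrsf12a* (0.953) and *lysmd1* for *ltbr* (0.971). For *tnfrsf4* the nearest were *not* (0.958) and *gabrr1* (0.956), both with a median under 0.2 CPM. Within the family, *il1r2* and *il18rap* were most alike (0.946), followed by *il1r1* and *ltbr* (0.945), and *tnfrsf4* stood apart with r between −0.10 and 0.45 to the other members.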

How the data were processed

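Total RNA from a short stretch of tail stump, with any regenerate, was sequenced as 24 libraries, 2 for each of 12 conditions. The authors made poly-A-selected stranded libraries, aligned the paired reads by STAR, then assigned them to genes by featureCounts, and the deposited values are these raw counts, 1 column per library, beside the summed exon length per gene. The submitters' processing notes name cutadapt 3.2, STAR 2.7.7a and Subread 2.0.1; strand and duplicate settings of the counting are not given in the sources used here. For 2 genes (*otogl2* and *neb*), rows broken over several lines were rejoined. Of 26531 symbols, 26530 were found in the RefSeq annotation of UCB_Xtro_10.0, from which gene positions were checked.

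Counts were analysed in R 4.3.3 with edgeR 4.0.16 (quasi-likelihood test, robust, filterByExpr, TMM factors). Each change over time was fitted on the 8 libraries of 1 genotype and 2 times, genotype and stage differences on all 24 libraries, and interactions on the 8 libraries they involve. The FDR was adjusted over all genes tested, and a DEG had an FDR under 0.05 with an absolute log2 FC over 1 (interactions: FDR alone). The standard error is the absolute log2 FC divided by the square root of F. CPM use TMM factors, and FPKM also the deposited length. The fits were tested on simulated data. Alternatives were RLE and upper-quartile factors, no filter, a replicate block, DESeq2 1.42.0, fits on all 24 or only 4 libraries, CPM by library totals alone, and leaving out each library in turn. The 10 members and the lists were chosen with earlier results of these data known. From a list, the text names at most 4 called genes a step, the largest change first, and for each member the 2 genes of the highest r.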

Additional observations from a re-analysis of the deposited data

How the results depend on the processing

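Of 69 called member values over the 30 comparisons, 51 kept their call under the 6 alternatives that use all libraries, 25 without each library in turn and the same 25 under every alternative, and 0 changed sign. With 2 libraries a condition, loss of the call without 1 library was thus frequent, and the cause was not tested. Upper-quartile factors shifted the median of all genes by −0.117 to 0.060 on the log2 scale, and the median CPM of the 10 members moved by less than the spread between libraries with library totals alone.

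The number of members called between 6 and 0 hpa was 5 in WT56 without a filter, against 8. Between 24 and 6 hpa in TRDKO61 it was 2 with the replicate block and 7 with DESeq2, against 4. Between 24 and 0 hpa it was 2 in TRDKO61 without a filter, with the replicate block and with DESeq2, against 1, and 5 in WT56 without a filter and with all 24 libraries in 1 fit, against 3. In the fit of 4 libraries it was 2 for TRDKO61 minus WT61 at 6 hpa, against 4, and 3 for TRDKO56 minus WT56 at 0 hpa, against 1. For TRDKO61 minus TRDKO56 at 0 hpa it was 1, against 2, with RLE or upper-quartile factors, no filter, the replicate block and the 4-library fit, and for WT61 minus WT56 at 6 hpa 2 with upper-quartile factors, against 1. DESeq2 called 1 interaction (*tnfrsf4*) for TRDKO61 minus WT61 at 24 and 6 hpa and 1 at 24 and 0 hpa, and without a filter 2 were called for WT61 minus WT56 at 24 and 0 hpa, against 0 in each.

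Without 1 library in turn, the members called between 6 and 0 hpa were 6 to 7 in TRDKO61, 0 to 6 in WT61, 6 to 9 in TRDKO56 and 2 to 6 in WT56. Between 24 and 6 hpa they were 0 to 1, 0 to 1, 1 to 5 and 1 to 2 in these groups, and between 24 and 0 hpa 0 to 2, 3 to 3, 2 to 5 and 3 to 5. For TRDKO61 minus WT61 they were 0 to 1 at 0 hpa, 0 to 5 at 6 hpa and 1 to 1 at 24 hpa, for TRDKO56 minus WT56 0 to 0 at each time, for TRDKO61 minus TRDKO56 0 to 2 at 0 hpa and 1 to 1 at 24 hpa, and for WT61 minus WT56 0 to 2, 1 to 3 and 0 to 1 at the 3 times. No interaction was called without 1 library.

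Sign changes touched only values that had no call. For 24 minus 6 hpa without 1 library, *il1b* was −0.36 to 1.33 in WT61 and −1.09 to 0.60 in WT56, *il1r2* −0.71 to 0.49 in WT56, *il18rap* −0.43 to 0.46 in WT61 and −0.65 to 0.57 in WT56, *tnfrsf4* −0.078 to 0.24 in TRDKO61 and *ltbr* −0.44 to 0.11 in WT61. *il18rap* in WT61 was also 0.0057 with upper-quartile factors and 0.037 with the replicate block. For 6 minus 0 hpa, *tnfrsf4* in WT56 was −0.014 to 0.81.

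The replicate numbers are shared by all groups. Over 66 pairs of conditions, the correlation of the deviations of same-numbered libraries was −0.304 to 0.288 (median −0.034), with 11 pairs over 0.1. Whether same-numbered libraries of some conditions share a source was not tested. The replicate block moved the counts named above and changed no other count of members called by over 1.5 times. Depth limits the changes of *il1r2*, *il18rap* and *tnfrsf4*, which had as few as 3, 3 and 2 counts in a library at 0 hpa.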
